A study of Mus musculus with 7 samples.

Results

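The genes described here are 45 imprinted genes of the mouse, among 17178 genes with a named probe on the array. They were chosen by their known imprinting, with Zim1's difference in these arrays already known, so that difference is given as a description and supports nothing. Of the 45, 39 had a named probe and 37 could be tested for a difference. H19, Meg3, Rtl1, Magel2, Zdbf2 and Klf14 had no named probe, and Usp29 and Snrpn had too few spots free of outlier flags. The probe that stands for a gene was selected on its brightness over all 7 arrays. Of the 39 probes, 38 were well above background on every array. The exception, Phlda2, was well above background in 1 of 3 cKO-labelled arrays and 4 of 4 controls, and therefore entered the test through the group in which it was brighter. No named member missed the limit of 3 arrays well above background.

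Transcript levels came from 1-colour Agilent arrays of dissected subpallium (septum plus ganglionic eminences) from CD-1 mice, all female embryos of stage E12.5. Each array held RNA of 1 embryo. The 3 arrays labelled Otx2 cKO came from embryos in which RxCre recombined a floxed allele of Otx2, a homeobox gene of the forebrain, and the 4 control arrays came from embryos labelled control, for which no alleles are named. RxCre acts across the forebrain but spares a caudal dorsomedial area, where the cortical hem and choroid plexus lie, so the model is limited to the Cre domain. The leading number of the litter label was read as the litter: litter 2 gave cKO replicates 1 and 3 and control replicates 2 and 3, and the other embryos came from litters of their own. Slide 1 held cKO replicate 1 and control replicates 1 and 2, and slide 2 held the other 4 arrays.

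Imprinted genes are expressed mainly from the allele of 1 parent, because the other allele carries a methylation or chromatin mark set in the germ line. Most lie in clusters that share an imprinting control region, and many act on growth, the placenta and the brain. Several, such as Peg3, Ndn, Nnat and Dlk1, are known for high expression in the embryonic brain. The arrays measured total transcript and cannot tell the parental alleles apart, so no value here bears on imprinting itself.

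The upstream sequences of Zim1, Peg3 and Mest are shown because, of the members with groups that did not overlap, these are the ones higher in cKO-labelled arrays. Each is the 250 bases before a transcription start in RefSeq (GRCm38.p6), written 5′ to 3′ on the strand of the gene, with every CpG, the site of DNA methylation, in capitals. Zim1 lies at chr7:6696433-6696682 on the minus strand, Peg3 at chr7:6730420-6730669 on the minus strand, and 1 of the Mest starts at chr6:30737800-30738049 on the plus strand.
Zim1: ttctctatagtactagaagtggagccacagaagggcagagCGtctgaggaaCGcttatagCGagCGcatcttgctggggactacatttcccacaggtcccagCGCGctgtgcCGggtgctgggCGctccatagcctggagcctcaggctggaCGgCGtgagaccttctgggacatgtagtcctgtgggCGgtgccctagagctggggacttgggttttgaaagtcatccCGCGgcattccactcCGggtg
Peg3: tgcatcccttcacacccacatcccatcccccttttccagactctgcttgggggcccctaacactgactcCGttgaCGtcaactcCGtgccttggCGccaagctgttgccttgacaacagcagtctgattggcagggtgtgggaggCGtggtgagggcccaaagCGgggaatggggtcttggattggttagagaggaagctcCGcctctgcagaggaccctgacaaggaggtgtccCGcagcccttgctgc
Mest: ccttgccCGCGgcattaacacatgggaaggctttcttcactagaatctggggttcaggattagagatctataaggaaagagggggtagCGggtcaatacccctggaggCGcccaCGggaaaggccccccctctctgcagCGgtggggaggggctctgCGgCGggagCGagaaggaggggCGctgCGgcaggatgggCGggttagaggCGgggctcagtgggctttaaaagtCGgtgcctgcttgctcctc
The windows held 14 CpGs for Zim1, 8 for Peg3 and 14 for Mest, against a median of 6 in all 32851 promoters of the table and of 13 in the 55 starts of the 36 members that were matched. The Peg3 window shares 163 bases with that of Usp29, which is read on the opposite strand. The motif TGCCGC, read by ZFP57, a protein that keeps imprinting marks in place, was searched on both strands; it occurred 1 time for Zim1, 2 times for Mest and 0 times for Peg3. It was present in 16.4% of member starts and in 8.68% of all promoters. Another Mest start, with its window at chr6:30733256-30733505, held 7 CpGs and neither motif searched here. The motif TAATCC, bound by OTX-type homeodomains, occurred 1 time for Mest and in neither of the other windows. It was present in 5.45% of member starts and in 6.25% of all promoters. Neither motif contains the other, starts of 1 gene can lie a few bases apart, and a match is a description of letters only.

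The label was checked first at Otx2. Its log2 signal, here as below relative to the 75th percentile of the array, was 1.78, 2.34 and 1.77 in cKO-labelled replicates 1 to 3, against 0.19, 0.55, 0.48 and 0.56 in control replicates 1 to 4, a difference of 1.52 ± 0.17 (SE; limma, adjusted p = 0.0356). The targeted gene was thus higher in the arrays labelled Otx2 cKO, against the label. Its call was lost without any 1 of the 7 arrays (adjusted p 0.0561 to 0.157). The sources used here do not give the segment that recombination deletes, and a probe outside it checks nothing. Every direction given here rests on the labels.

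Most imprinted genes lay close to their control level. Of the 37 tested, 19 were higher and 18 lower in cKO-labelled arrays, and 32 differed by less than 0.3 on the log2 scale. The median difference was 0.02 for the members and 0.01 for all 13350 genes tested, and the median size of the difference was 0.13 for both. Zim1 was the 1 member that passed the threshold (limma, Benjamini-Hochberg adjusted p under 0.05 over all genes tested) and 36 did not, where 0.21% of all genes tested passed. The groups did not overlap for 4 of the 37 members (10.8%), against 12.8% of all genes tested. Zim1, Peg3 and Mest were the 3 higher ones and Ppp1r9a the 1 lower. At an unadjusted p under 0.05 stood 6 of the 37 members (16.2%), Zim1, Peg3, Mest, Sgce, Asb4 and Phlda2, against 1472 of all 13350 genes tested (11.0%). Of these, Zim1 was listed with its difference known and Phlda2 entered through its brighter group, so the members' share is a description only. By the allele each gene is known to use, the 17 tested genes expressed mainly from the maternal allele comprised 10 higher and 7 lower, and the 17 expressed mainly from the paternal allele comprised 8 higher and 9 lower.

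**Figure D1:**
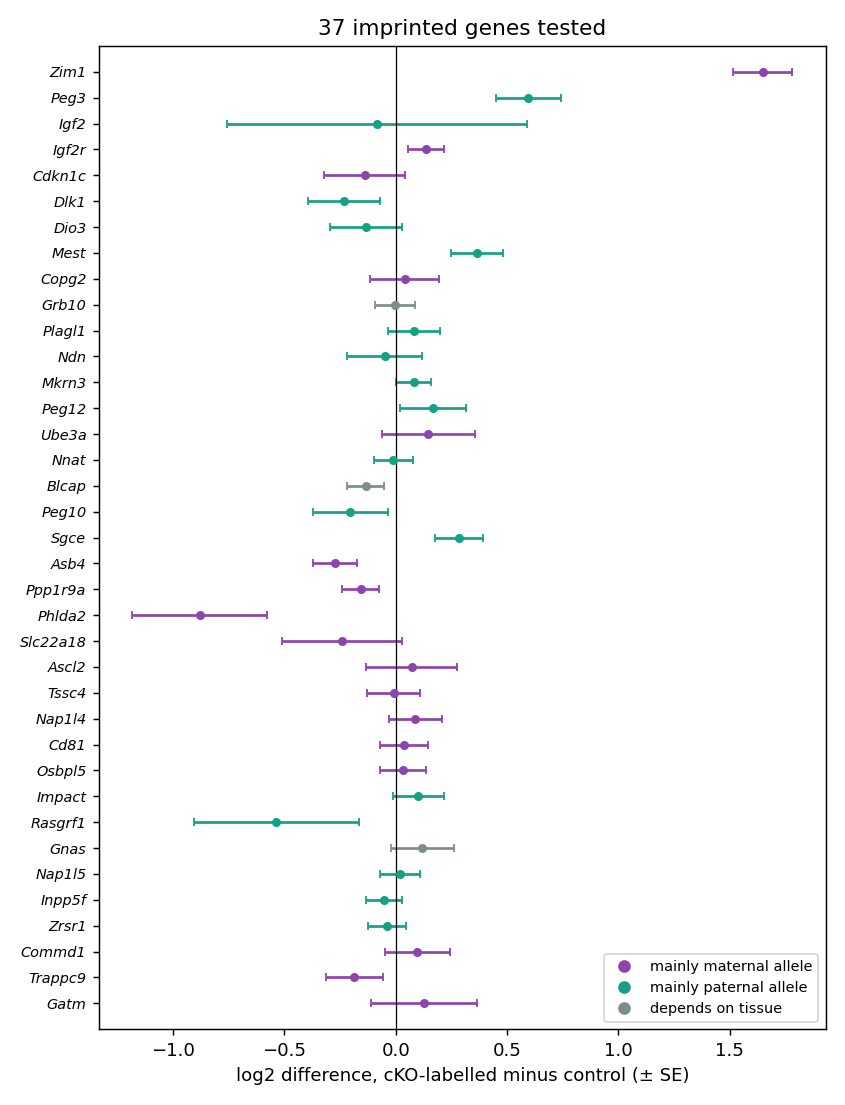
The log2 difference of each of the 37 tested members, cKO-labelled minus control, with limma's standard error (n = 3 and 4). Points are coloured by the allele the gene is known to use. Zim1 stands at 1.65, 32 members lie within 0.3 of 0, and Igf2 has the widest error at 0.67.

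The Peg3 cluster on chromosome 7 held the member with the largest difference. Zim1, a zinc finger gene expressed from the maternal allele, had log2 signals of -4.75, -4.54 and -4.38 in cKO-labelled replicates 1 to 3, against -6.19, -6.46, -6.07 and -6.11 in control replicates 1 to 4. All 3 cKO-labelled arrays lay above all 4 controls, with a gap wider than the range within either group. The difference was 1.65 ± 0.13 (SE, n = 3 and 4), or 3.14-fold (limma, adjusted p = 0.0152), given as a description for the reason above. The probe is dim: its processed signal was 74.9, 90.2 and 80.8 intensity units in cKO-labelled arrays, against 33.2, 22.1, 27.5 and 30.9 in controls, although well above background on all 7. The difference was 0.67 after normexp correction and quantile normalization and 0.85 in the authors' deposited table, where the background correction adds an offset of 50 before normalization and the values follow the uncorrected signal in the authors' table. It was 1.58 within slide 1, 1.63 within slide 2 and 1.70 within litter 2. The call was kept without cKO replicate 1 (adjusted p = 0.0352) and ended without each other array: the adjusted p was 0.0561 without cKO replicate 2, 0.0648 without cKO replicate 3, and 0.0510, 0.0599, 0.106 and 0.0695 without control replicates 1 to 4.

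Peg3, a zinc finger gene of the paternal allele known in mice for effects on growth and maternal care, had log2 signals of 1.64, 1.84 and 1.73 in cKO-labelled replicates, against 0.85, 1.41, 1.26 and 1.03 in controls. The groups did not overlap, but the difference of 0.60 ± 0.15 did not pass over all genes (limma, adjusted p = 0.265). Its other probe gave 1.72, 1.80 and 1.60 in cKO-labelled arrays, against 0.73, 1.06, 0.93 and 0.86 in controls, a difference of 0.81, again with no overlap. Within litter 2 the difference of the brighter probe was 0.35. Usp29, a ubiquitin protease gene read from the same upstream stretch on the other strand, had outlier flags on most arrays. With flagged spots kept it gave 2.51, 2.38 and 2.38 in cKO-labelled arrays and 2.00, 2.14, 2.46 and 2.13 in controls, so the groups overlapped, with a difference of 0.24 ± 0.12.

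**Figure D2:**
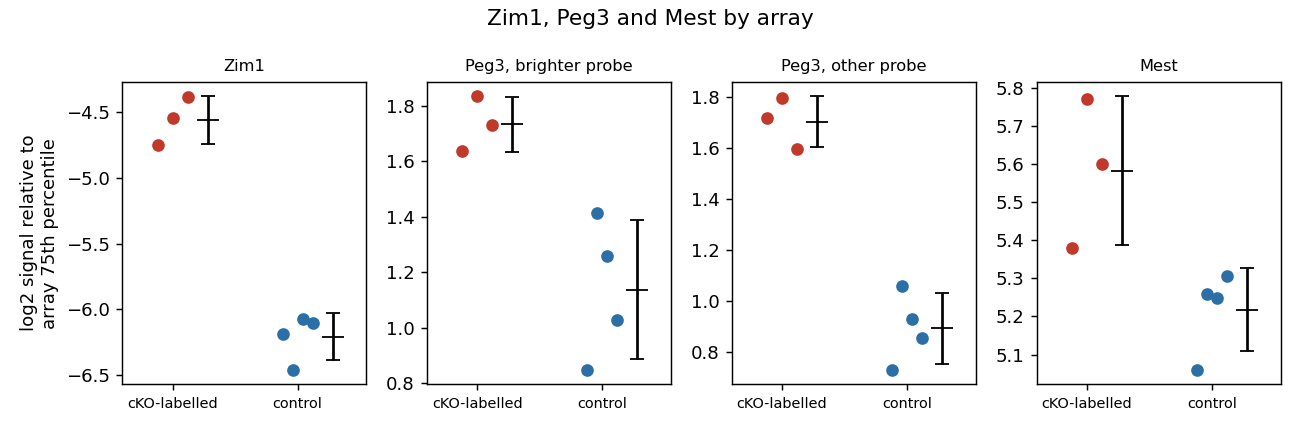
Log2 signal relative to the array's 75th percentile for Zim1, both Peg3 probes and Mest, with 1 point per array, replicates in order from left to right, and mean ± SD beside the points (3 cKO-labelled, 4 control). Each panel has its own scale. In all 4 panels every cKO-labelled array lies above every control.

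The Mest and Sgce clusters lie on chromosome 6. Mest, which encodes a hydrolase-like protein made from the paternal allele in mesoderm and brain, had log2 signals of 5.38, 5.77 and 5.60 in cKO-labelled replicates, against 5.06, 5.26, 5.25 and 5.31 in controls. The groups lay apart by a narrow margin, and the difference of 0.37 ± 0.12 did not pass (limma, adjusted p = 0.338). Its neighbour Copg2, a coatomer subunit gene, differed by 0.04 ± 0.15 over the arrays with a value, without control replicate 2. The dimmer Copg2 probes differed by 0.09 and 0.50, with overlap. Sgce, the epsilon-sarcoglycan gene, had 3.53, 3.80 and 3.74 in cKO-labelled arrays and 3.26, 3.38, 3.58 and 3.40 in controls, a difference of 0.28 ± 0.11 with 1 control above the lowest cKO-labelled array. Its dimmer probe differed by 0.34, without cKO replicate 2, and did not overlap. Peg10, a retrotransposon-derived gene that shares its start region with Sgce, went the other way at -0.20 ± 0.17, with overlapping groups.

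Of the maternally expressed genes of that cluster, Asb4, which encodes a substrate adaptor of a ubiquitin ligase, had 3.44, 3.51 and 3.62 in cKO-labelled arrays and 3.61, 3.87, 3.91 and 3.78 in controls. The difference was -0.27 ± 0.10, the groups touched at control replicate 1, and the dimmer probe differed by 0.04. Ppp1r9a, which encodes the actin-binding protein neurabin, had 3.10, 3.08 and 3.09 in cKO-labelled arrays and 3.13, 3.38, 3.26 and 3.22 in controls. All 3 cKO-labelled arrays lay below the controls on this probe, with a difference of -0.16 ± 0.08, while its 3 dimmer probes differed by 0.11, 0.19 and 0.61. The probes of Asb4 and Ppp1r9a thus disagreed in sign.

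Among the growth regulators, Igf2, the fetal growth factor made from the paternal allele, had the largest standard error of the 37 tested members. Its log2 signal was 1.09, 3.62 and 1.53 in cKO-labelled replicates 1 to 3, against 2.29, 1.11, 2.48 and 2.79 in control replicates 1 to 4. The highest array and the lowest were both cKO-labelled, and the difference was -0.08 ± 0.67. The 10 spots of this probe had an SD of 0.04 to 0.10 within an array, far under the spread between arrays. The other probe put the 7 arrays in the same order, with -0.66, 2.17 and -0.09 in cKO-labelled arrays and 0.76, -0.60, 0.96 and 1.27 in controls.

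Igf2 moved with markers of mesenchyme and pericytes, the cells of the meninges and vessel walls. The median of 13 such markers, each centred on its own mean over the arrays, was -1.27, 1.59 and -0.67 in cKO-labelled replicates and 0.46, -1.39, 0.60 and 0.82 in controls. Across the 7 arrays the Igf2 level followed this median with Pearson's r = 0.989 (exact permutation test, two-sided, p = 0.000397, adjusted p = 0.0139 over 35 members) and Spearman's rho = 0.964 (exact permutation p = 0.00278, adjusted p = 0.0972). Without cKO replicate 1 and control replicate 2, the 2 arrays farthest from the median marker level of 0.46, r was 0.985. The markers left a gap between 3 low and 4 high arrays, and among the 4 high ones Igf2 kept the order of the markers. The 3 low arrays were all of litter 2, as was control replicate 3 among the high ones. The permutation test treated all 7 arrays as exchangeable and took no account of litter. Slides held 3 and 4 arrays, too few for a value within each. Of 35 members with a value on every array 1, Igf2, passed. The next by p were Nap1l5 at r = -0.931 (exact permutation, adjusted p = 0.0556) and Grb10 at r = 0.864 (adjusted p = 0.106). Nap1l4 had r = -0.88 (exact permutation, adjusted p = 0.156). Zim1 had r = 0.00 with the markers, and with their median as a covariate its difference was 1.67. In bulk tissue, fewer cells of a type and less RNA per cell cannot be told apart.

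**Figure D3:**
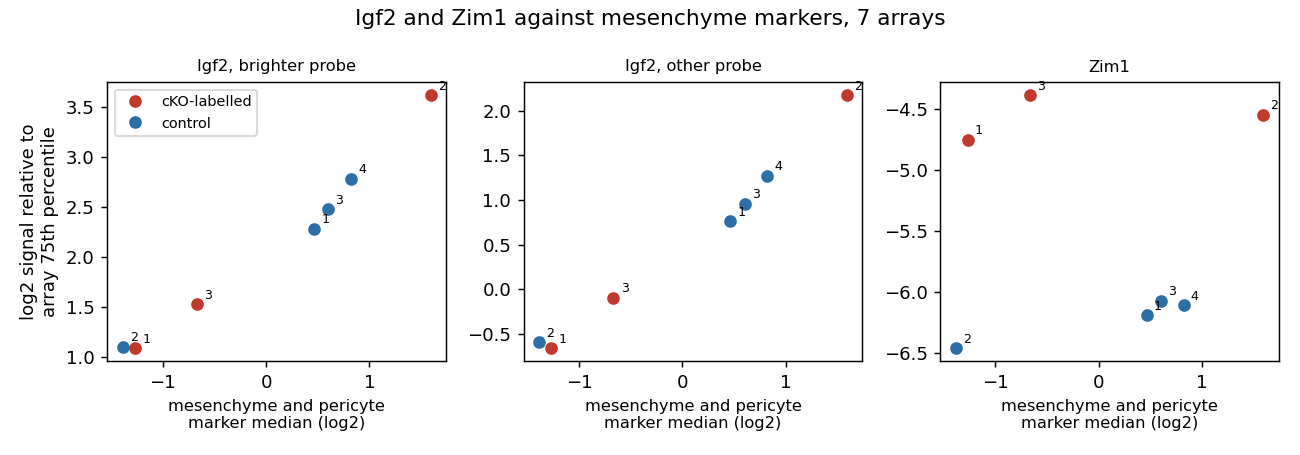
Log2 signal of both Igf2 probes and of Zim1 against the median of the mesenchyme and pericyte markers on the same array, with replicate numbers beside the points. Igf2 is higher on arrays with higher markers in both groups, while the 3 cKO-labelled Zim1 points lie above the 4 controls at low and high marker levels.

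Igf2r, the maternally expressed receptor that clears IGF2, ranged from 2.35 to 2.51 in cKO-labelled arrays and from 2.20 to 2.38 in controls, a difference of 0.14 ± 0.08. Grb10, an adaptor that restrains insulin and IGF receptors and uses the paternal allele in neurons, ranged from 5.09 to 5.36 in cKO-labelled arrays and from 5.17 to 5.24 in controls, a difference of 0.00 ± 0.09. Plagl1, a zinc finger regulator of the imprinted gene network, ranged from 5.35 to 5.69 in cKO-labelled arrays and from 5.27 to 5.59 in controls. For each of the 3 the groups overlapped on the probe used. The dimmer Grb10 probes differed by 0.18 and 0.38, with overlap. The dimmer Plagl1 probe differed by -0.08, opposite in sign to the 0.08 of the one used, also with overlap. Gnas, which encodes a stimulatory G protein subunit, differed by 0.12 ± 0.14, and Rasgrf1, a Ras exchange factor gene, by -0.54 ± 0.37. Rasgrf1 had -3.30, -4.25 and -4.82 in cKO-labelled arrays and -3.08, -3.87, -3.60 and -3.79 in controls, so its value rests on wide scatter.

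In the Kcnq1 cluster on chromosome 7, none of 8 tested members was called (limma; 1, Phlda2, had an unadjusted p under 0.05). Cdkn1c, the cyclin-dependent kinase inhibitor p57 of differentiating cells, had 4.17, 4.83 and 4.33 in cKO-labelled arrays and 4.31, 4.59, 4.75 and 4.67 in controls, with a difference of -0.14 ± 0.18. Phlda2, a restraint on placental growth, was at the common floor of -7.45 in cKO replicates 1 and 3 and at -6.37 in cKO replicate 2, against -6.38, -5.82, -6.14 and -6.48 in controls. Its difference of -0.88 ± 0.30 (limma, adjusted p = 0.369) depends on where the floor is set, and was -0.35 in the authors' deposited table. The other 6 members were Slc22a18 (a transporter), Ascl2 (a trophoblast transcription factor), Tssc4, Nap1l4 (a histone chaperone), Cd81 (a tetraspanin) and Osbpl5 (a lipid-binding protein). They differed by -0.24 to 0.09, and their groups overlapped, on the probes used. Of the dimmer Nap1l4 probes, 1 differed by 0.24 without overlap, lacking a value for cKO replicate 2, and the other by 0.41 with overlap. A second probe of Slc22a18 differed by 0.86, opposite in sign to the -0.24 of the one used.

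The Dlk1-Dio3 and Prader-Willi/Angelman clusters hold genes of the developing brain. Dlk1, a Notch-like membrane protein gene, had 3.29, 3.53 and 2.92 in cKO-labelled arrays and 3.31, 3.66, 3.54 and 3.40 in controls, a difference of -0.23 ± 0.16. Dio3, whose product inactivates thyroid hormone, differed by -0.13 ± 0.16. Ndn, a MAGE-family gene of neurons, had 3.97, 3.60 and 3.57 in cKO-labelled arrays and 4.10, 3.78, 3.61 and 3.55 in controls; the spread within each group exceeded the difference of -0.05 ± 0.17. Mkrn3, Peg12 and Ube3a, the ubiquitin ligase gene of Angelman syndrome, differed by 0.08, 0.17 and 0.15, with overlapping groups. Snrpn, a splicing protein gene, was flagged on most arrays. With flagged spots kept its values were 3.45, 3.01 and 3.14 in cKO-labelled arrays and 3.81, 3.53, 3.47 and 3.39 in controls, which overlapped, and the difference of -0.35 ± 0.14 did not pass (limma, adjusted p = 0.442). Its dimmer probe, flagged spots kept, gave 2.32, 2.23 and 2.34 in cKO-labelled arrays and 2.59, 2.42, 2.56 and 2.54 in controls, without overlap.

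The remaining members differed little. Nnat, a membrane protein gene of newborn neurons, ranged from 6.09 to 6.35 in cKO-labelled arrays and from 6.19 to 6.29 in controls. Blcap, in whose intron Nnat lies, differed by -0.14 ± 0.08. Impact, a regulator of translation, differed by 0.10 ± 0.11, and Nap1l5, Inpp5f (a phosphoinositide phosphatase) and Zrsr1 (a splicing factor) by 0.02, -0.05 and -0.04. Commd1, a gene of copper handling that hosts Zrsr1, differed by 0.10 ± 0.15. Trappc9, a trafficking complex gene, differed by -0.19 ± 0.13 without a value for cKO replicate 2, and Gatm, of creatine synthesis, by 0.13 ± 0.24. On the probes used, the groups of all these genes overlapped. Of the dimmer Commd1 probes, 1 was higher in every cKO-labelled array, by 0.26, and the other differed by 0.09 with overlap. The dimmer probes of Inpp5f and Blcap differed by 0.23 and 0.02, opposite in sign to the ones used, with overlap.

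A list of 32 further imprinted genes gave 18 tested genes, of which 1 rose and none fell (limma), with a median difference of 0.07. Of the 18, 5 had an unadjusted p under 0.05, where 11.0% of all genes tested did. This list was chosen with earlier results of these data known, so its counts are a description only. The gene that rose was Calcr, the calcitonin receptor gene expressed from the maternal allele in mouse brain and a neighbour of the Sgce cluster. It had 0.23, 0.28 and 0.27 in cKO-labelled arrays and -0.89, -0.71, -0.72 and -0.65 in controls, a difference of 1.002 ± 0.081 (limma, adjusted p = 0.0152), while a dim second probe differed by 0.28 with overlapping groups. The call was kept without cKO replicate 1 or control replicate 1 (adjusted p 0.0362 and 0.0249). It was lost without cKO replicate 2 or 3 (0.0561 and 0.0710) and without control replicate 2, 3 or 4 (0.0599, 0.106 and 0.0695). Blocking on litter ended it too, as did litter 2 alone (adjusted p 0.376 and 0.372); it was lost within slide 1 and slide 2 (1 and 0.265), with the replicate block (0.326) and with the mean of both probes, where the difference was 0.64 (adjusted p = 0.271).

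Genes that keep imprints gave 16 tested of 20 listed, with 0 called by limma. An unadjusted p under 0.05 was found for 11.0% of all genes tested and for 2 of the 16. These were Zfp57, which protects methylated imprinting control regions, and Dnmt1, the maintenance DNA methyltransferase. Zfp57 had -0.54, -0.64 and -0.77 in cKO-labelled arrays and -0.24, -0.19, -0.26 and -0.35 in controls. Dnmt1 had 2.84, 2.75 and 2.74 in cKO-labelled arrays and 3.03, 3.19, 3.10 and 3.06 in controls. All cKO-labelled arrays lay below all controls for both, where the groups did not overlap for 12.8% of all genes tested. The differences of -0.39 ± 0.08 and -0.32 ± 0.08 did not pass (limma, adjusted p = 0.212 and 0.254). Of 13 genes of insulin-like growth factor signalling 12 were tested and 0 called by limma. An unadjusted p under 0.05 was found for 2 of the 12, against the same 11.0%. Irs4 and Irs1, which encode docking proteins of these receptors, had differences of 0.44 ± 0.16 and 0.16 ± 0.06.

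**Figure D4:**
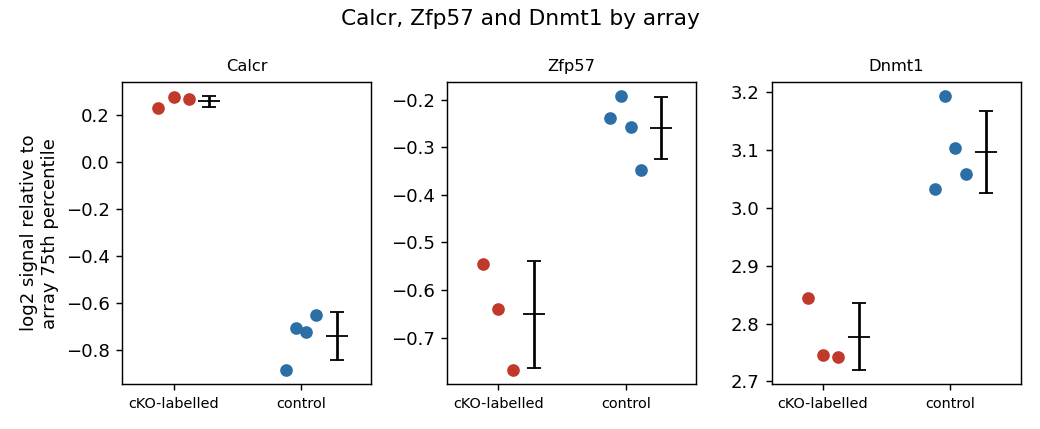
Log2 signal relative to the array's 75th percentile for Calcr, Zfp57 and Dnmt1, with 1 point per array and mean ± SD beside the points (3 cKO-labelled, 4 control). Each panel has its own scale. Calcr is higher, and Zfp57 and Dnmt1 lower, in all 3 cKO-labelled arrays than in all 4 controls. Calcr passed the test over all genes, and Zfp57 and Dnmt1 did not. The groups did not overlap for 12.8% of all genes tested.

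Among markers of neighbouring cells and tissue, calls came only from the hypothalamus and preoptic list. For the hypothalamus and preoptic area, the median of 8 such markers was 0.38, 0.74 and 0.41 in cKO-labelled replicates and -0.69, -0.39, 0.00 and -0.08 in controls, on the scale centred per gene. Of the 8, 2 were called by limma (Hmx2 and Hmx3, both higher), where 0.21% of all genes tested were. The list was chosen with earlier results of these data known, so its counts are a description only. The groups did not overlap for 12.8% of all genes tested. An unadjusted p under 0.05 was found for 11.0% of all genes tested and for 5 of the 8. Of these 5, Hmx2, Hmx3, Sim1 and Lhx5 were higher in all cKO-labelled arrays than in all controls, and Nkx2-2 was lower in all of them, by -1.59 ± 0.38. Nkx2-2 was at the floor of -7.45 in cKO replicates 1 and 3, and Sim1 in control replicates 1 and 2. The sizes of their differences therefore depend on where the floor is set. Pomc, Avp and Foxd1 overlapped. The Hmx2 and Hmx3 calls each held in 8 of 23 alternatives. Hmx3 was lost without any 1 array (adjusted p 0.0566 to 0.134), and Hmx2 was lost without any 1 array (0.0599 to 0.110) except control replicate 1 (0.0249). Of the list of 10, 1 marker not tested stayed near background on all 7 arrays. Zim1, Peg3 and Calcr were higher in the same arrays, and the part of these cells in their differences was not tested. Mesenchyme and pericyte markers had medians of -1.27 to 1.59 in cKO-labelled arrays and -1.39 to 0.82 in controls, with 0 of 14 called (limma; 0 at an unadjusted p under 0.05). Of 61 tested markers of 7 other cell types or regions (blood, endothelium, microglia, choroid plexus, neurons, radial glia and subpallium), 0 were called by limma. An unadjusted p under 0.05 was found for 7 of the 61, near the 11.0% of all genes tested. The neuronal marker median was lower in every cKO-labelled array (-0.21 to -0.01) than in any control (0.02 to 0.13). That of radial glia was higher in every one (0.03 to 0.08, against -0.20 to 0.02 in controls). Both gaps were narrow: the nearest cKO-labelled and control arrays stood at -0.008 and 0.015 for neurons, and at 0.028 and 0.020 for radial glia. Gad1 and Gad2, which make GABA, were lower in all cKO-labelled arrays than in all controls, with differences of -0.67 ± 0.13 and -0.34 ± 0.08 (limma, adjusted p = 0.171 and 0.244). The part of these markers in the members' values was not tested either. Among the subpallium markers, Dlx1, Dlx2, Dlx5, Gad1, Gad2, Gsx2 and Nkx2-1 were tested. On each array 68.4% to 72.2% of spots exceeded background clearly.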

How the data were processed

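Single-colour Agilent arrays of 7 embryos (3 labelled Otx2 cKO, 4 control) were read from the deposited scanner files. Per the file headers, Feature Extraction 10.7.3.1 subtracted background from the spot intensity and detrended it; the submitters' processing notes name 10.5. A further table, deposited by the authors, holds values that behave as log2; the sources used here do not give its scale. Its column medians were 7.62, 7.62 and 7.64 for cKO replicates and 7.61, 7.63, 7.61 and 7.62 for controls, probes ranked in it as by median spot signal (rank correlation at least 0.99996), and it served as an alternative.

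Control spots and outlier-flagged spots (1.24% to 2.51% per array) were left out; no spot was saturated. Values are log2 of the processed signal over the 75th percentile of its array, with a floor of -7.45. Probes were named through RefSeq accessions (24844 of 41174 had a symbol). The brightest probe stood for a gene, and was tested if well above background on at least 3 arrays, with at least 2 unflagged values per group (13744 genes passed the background limit and 13350 were tested). Group differences came from limma 3.58.1 (R 4.3.3; lmFit, then eBayes) with no covariate, and Benjamini-Hochberg adjustment ran over all genes tested. SE is limma's moderated standard error, with a median of 0.13. The fit was tested on simulated data. The normexp alternative used the median spot signal, because the mean signal was not among the columns used here. The number of arrays limits the precision.

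The members and the lists were chosen with earlier results of these data known. Outside the members, the genes named were Otx2 and, in each list that is not a marker list, up to 4 genes past the threshold or else the 2 with the smallest p. The marker genes given with a value or direction (Hmx2, Hmx3, Sim1, Lhx5, Nkx2-2, Pomc, Avp, Foxd1, Gad1 and Gad2) were named after their values were seen. The alternatives covered scaling, background correction, filters, flags, probes, slide, litter, replicate number, variance model and each array left out.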

Additional observations from a re-analysis of the deposited data

Results flagged for a closer look

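Of 36 members with a value on all 4 control arrays, 2 had a control array far from the other 3, where the gap to the nearest divided by the range exceeded Dixon's critical value of 0.829; chance flags about 1 in 20 groups. Blcap was 5.041 in control replicate 3, above 4.928 to 4.943 in the other controls. Commd1 was 3.670 in control replicate 1, below 3.993 to 4.020 in the other controls.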

How the results depend on the processing

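Over 23 alternatives Zim1 stayed higher in cKO-labelled arrays, with a difference of 0.67 to 1.75, and was called in 12. The number of members called was 1 (Zim1) with limma under each alternative on scaling, background, filters, flags, probes, variance, array weights, slide as a block and the marker covariate, the last added after seeing the data. It was 0 with litter as a block, within litter 2 and within slide 2, which have fewer arrays or spend degrees of freedom. An unadjusted p under 0.05 was then found for 7, 6 and 5 members. The share of all genes at that level was not taken for these fits, so the counts show no excess. Leaving out each array in turn gave 0 to 1 members called and a median difference of -0.01 to 0.07. The median was -0.078 with centring on the array median, where that of all genes was -0.08. Replicate numbers did not pair the samples: same-numbered deviations correlated at 0.11, -0.53 and 0.03. With the replicate block 0 members were called by limma. An unadjusted p under 0.05 was found for 5, again without a share of all genes to set beside it. Of the 37 members 12 kept their sign in every setting run and 25 had both signs. Genes called over the whole table numbered 28, and 0 to 50 over the alternatives; 11 of the 28 were higher, against 14 of 50 with the mean-variance trend. Dim probes limit Zim1, Phlda2 and Ascl2, whose folds depend on the background treatment or the floor. Slc22a18 is dim too, with a processed signal of 39.1 to 102.1, and its difference ran from -0.68 to 0.31 over the alternatives.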
